A study of Mus with 8 samples.

Results

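Smooth muscle cells of vessel walls, the pericytes around capillaries and the myofibroblasts of a tumour stroma share a contractile programme, and 9 genes of it were followed here: Acta2, Actg2, Myh11, Mylk, Tagln, Cnn1, Lmod1, Rgs5 and Notch3. They were chosen by name as known genes of these cells, at a time when earlier results of these data were known. Every array probe whose RefSeq accession belongs to one of them was taken. This gave 16 probes among the 22911 genes named on the array. The probes of 8 of the 9 genes were bright enough to test, among 16056 genes tested in all. Lmod1 did not clear background on any of the 8 arrays. Levels were measured in 8 whole subcutaneous tumours grown from Pan02, a mouse pancreatic cancer cell line. The 4 Mutant tumours grew in B6 hosts that carried Ext1 flox/flox and S100a4-Cre, and the 4 Control tumours grew in wild type B6 hosts, all taken at 36 to 40 days. The product of Ext1 lengthens heparan sulfate, a sugar chain of the cell surface and matrix. The recombinase is driven by control regions of S100a4, which is active in fibroblasts but also in certain immune and stromal cells of other kinds. The comparison asks how tumours differ when host cells of that lineage lose Ext1, while the transplanted cancer cells keep it. As wild type, the Control hosts lack both the floxed alleles and the recombinase, so effects of carrying these cannot be told apart from loss of Ext1. The age of the mice is not given in the sources used here.

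Contraction of smooth muscle starts when calcium activates myosin light chain kinase, which lets myosin pull on actin filaments. The genes of the apparatus are switched on together by serum response factor with its partners myocardin and the myocardin-related factors, and fibroblasts that turn on smooth muscle actin are called myofibroblasts. In tumours such cells build and tighten the matrix, while smooth muscle cells and pericytes support the vessels. In a whole tumour, fewer cells of a type and less RNA per cell cannot be told apart.

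Each level below is a log2 signal from which the array's own 75th percentile was subtracted. A difference is the Mutant mean minus the Control mean, and a probe is compared only with itself in other tumours. On each array 61.5% to 67.2% of probes exceeded background clearly, no spot was saturated, and the number of arrays limits the precision. Ext1 read 3.15 ± 0.22 in Mutant and 3.07 ± 0.76 in Control tumours (SD, n = 4 each), a difference of 0.07 (two-sided exact permutation p = 0.943). The position of the probe relative to the deleted part was not examined, and Pan02 cells keep the gene, so the value checks neither the deletion nor the labels. The labels name the cell type as pancreatic cancer cell, and 4 of 5 epithelial markers were kept after the filter on dim probes, all but Epcam. Control 4 stood apart from the other tumours: of the 8 tumours it had the lowest level in 35.2% of all genes and the highest in 22.4%, or either in 57.5%. Among the 8 members tested it was lowest in 3 (Actg2, Notch3 and Cnn1) and highest in 3 (Tagln, Myh11 and Rgs5).

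The contractile and mural genes did not differ between the host groups beyond the spread among tumours. Of the 8 members tested, limma called 0 at an adjusted p under 0.05, where it called 0 of 16056 genes, and 0 members passed at an unadjusted p under 0.05, where 2.91% of all genes did (1.87% higher and 1.03% lower in Mutant tumours). Levels were higher in Mutant tumours for 7 members and lower for 1, where 52.4% of all genes were higher. The median difference of the members was 0.35, and that of all genes was 0.01. The 2 groups overlapped in every member tested, while they did not overlap in 1.41% of all genes. The 95% confidence interval of each of the 8 differences included 0.

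**Figure D1:**
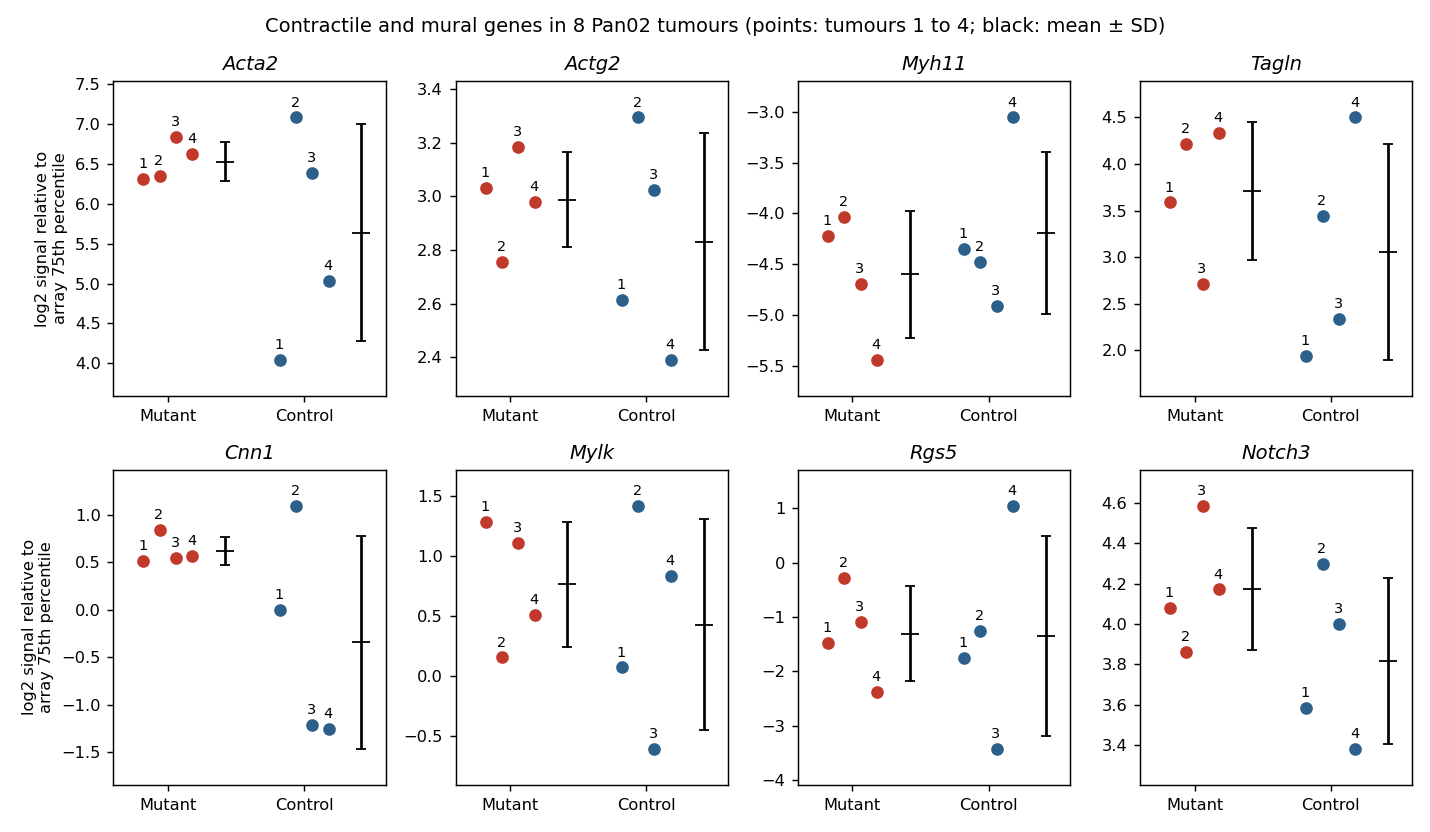
Level of each tested gene in the 4 Mutant and the 4 Control tumours, as log2 signal relative to the array 75th percentile, with a separate vertical scale per gene. Points are tumours numbered as in the labels, and black bars are the mean ± SD of 4. In Acta2 and Cnn1 the Mutant tumours lie close together, within the range of the Control tumours.

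Actins form the thin filaments. Acta2, the actin of vascular smooth muscle and the usual marker of myofibroblasts, read 6.31, 6.34, 6.84 and 6.62 in Mutant 1 to 4, against 4.04, 7.08, 6.39 and 5.03 in Control 1 to 4. The Mutant tumours lay within the Control range, and Control 1 and Control 4 were below all of them. Acta2 averaged 6.53 ± 0.25 in Mutant and 5.64 ± 1.36 in Control tumours (SD, n = 4 each), or 1.86-fold (difference 0.89 with a standard error of 0.61, 95% interval -0.53 to 2.31, limma adjusted p = 1.00). The difference was 0.36 without Control 1 and 1.37 without Control 2. It had the same sign in both rows of the slide, 0.77 in the first and 1.02 in the other.

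The array carries 3 probes of Acta2, and they differed in how widely the tumours spread. The brightest, used above, spanned 3.04 over the 8 tumours and probe A_52_P210078 spanned 3.45, with differences of 0.89 and 0.76. Probe A_51_P450957 spanned only 1.16, with a difference of 0.20. It read 4.53, 4.32, 4.58 and 4.49 in Mutant 1 to 4, against 4.03, 4.87, 4.51 and 3.71 in Control 1 to 4. Over the 8 tumours this probe followed the Actg2 probe (r = 0.981) more closely than the brightest Acta2 probe (r = 0.846). Probe sequences were not used here, and whether a probe binds the transcripts of more than 1 actin was not tested.

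Actg2, the actin of gut and other visceral smooth muscle, read 3.03, 2.76, 3.18 and 2.98 in Mutant 1 to 4, against 2.61, 3.29, 3.03 and 2.39 in Control 1 to 4. The groups overlapped, with Control 2 the highest tumour and Control 4 the lowest. The difference was 0.16 with a 95% interval of -0.33 to 0.64 (limma adjusted p = 1.00), and it was 0.01 without Control 4. In row 1 of the slide it was -0.06 and in row 2 it was 0.37. Of the other 4 actins, the skeletal muscle actin Acta1 differed by 2.05 with a standard error of 0.69 and the cardiac actin Actc1 by 0.80 with a standard error of 0.60. The cytoskeletal actin Actg1 differed by -0.08, and Actb, the other cytoskeletal actin, by -0.08, or by 0.01 after quantile normalization. None of the 4 passed (limma adjusted p = 1.00 for each), and 1, Acta1, had an unadjusted p under 0.05, where 2.91% of all genes did.

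Myh11, the myosin heavy chain found in mature smooth muscle, was the only member lower in Mutant tumours. Its brightest probe read -4.23, -4.04, -4.69 and -5.44 in Mutant 1 to 4, against -4.35, -4.48, -4.91 and -3.06 in Control 1 to 4. Control 4 was the highest tumour and Mutant 4 the lowest, and the other 6 tumours lay between -4.91 and -4.04. The difference was -0.40 with a 95% interval of -1.45 to 0.65 (limma adjusted p = 1.00), -0.02 without Control 4, and -0.12 without Mutant 4. It was 0.28 in row 1 of the slide and -1.09 in row 2. This brightest probe was dim but above background on all 8 arrays. A further Myh11 probe, above background on 2 Mutant and 2 Control arrays, differed by -0.05. The remaining one was above background on 0 Mutant arrays and 1 Control array, so these dimmer probes were near the limit of measurement.

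Mylk encodes the kinase that phosphorylates the myosin light chain and so starts contraction. It read 1.28, 0.16, 1.11 and 0.51 in Mutant 1 to 4, against 0.07, 1.41, -0.60 and 0.83 in Control 1 to 4. Each Mutant tumour lay between the lowest and the highest Control tumour. The 3 Mylk probes gave differences of 0.29, 0.33 and 0.34, and their levels correlated over the 8 tumours with r between 0.954 and 0.997. For the brightest the 95% interval was -0.72 to 1.39 (limma adjusted p = 1.00), and the difference turned to -0.01 without Control 3. By slide row it was -0.02 and 0.69.

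The products of Tagln, Cnn1 and Lmod1 act on the actin filament. Tagln, which encodes the actin-binding protein transgelin, read 3.59, 4.22, 2.71 and 4.33 in Mutant 1 to 4, against 1.94, 3.44, 2.34 and 4.50 in Control 1 to 4. Control 4 was the highest tumour, and Control 1 and Control 3 were below every Mutant tumour. The mean was 3.71 ± 0.74 in Mutant and 3.05 ± 1.16 in Control tumours (SD, n = 4 each), a 1.58-fold difference with a 95% interval of -0.75 to 2.07 on the log2 scale (limma adjusted p = 1.00). Without Control 1 the Tagln difference was 0.28 in place of 0.66, and without Control 4 it was 1.14. With arrays weighted by their quality it was 1.26. Within the slide rows it was 1.21 and 0.10.

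Cnn1, or calponin 1, which restrains the myosin motor on actin and is a late smooth muscle marker, had the smallest p of the members. It read 0.51, 0.84, 0.54 and 0.57 in Mutant 1 to 4, against -0.0041, 1.09, -1.21 and -1.25 in Control 1 to 4. Control 1, Control 3 and Control 4 were below all Mutant tumours, while Control 2 was above all of them. Cnn1 averaged 0.62 ± 0.15 in Mutant and -0.34 ± 1.12 in Control tumours (SD, n = 4 each), or 1.95-fold. The difference was 0.96 with a standard error of 0.50 and a 95% interval of -0.20 to 2.12 (limma unadjusted p = 0.0924, adjusted p = 1.00, two-sided exact permutation p = 0.200). A second, dimmer Cnn1 probe differed by 1.02 and followed the first with r = 0.969. That dimmer probe was above background on 4 Mutant but only 2 Control arrays, so part of its Control values lay near the limit of measurement. The difference of the brighter probe was 0.14 in row 1 of the slide and 1.78 in row 2, where Control 3 and Control 4 lay. It was 0.66 without Control 4, 0.67 without Control 3, 1.44 without Control 2 and 0.55 with array weights. Lmod1, leiomodin 1, which nucleates actin filaments in smooth muscle, was not clearly above background on any of the 8 arrays, and no fold is given.

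**Figure D2:**
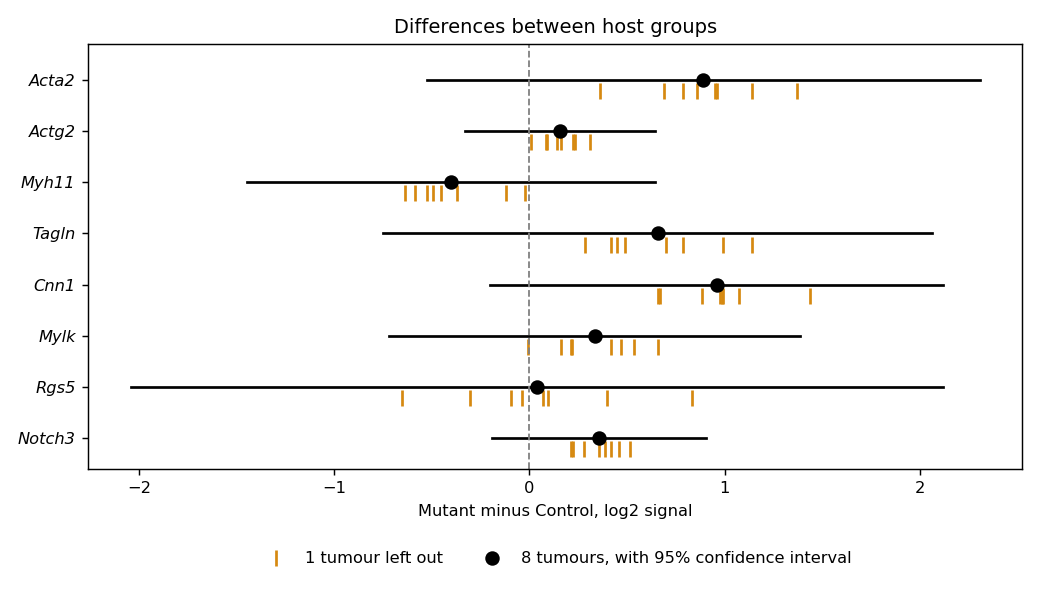
Difference of each tested gene, Mutant minus Control in log2 signal. Points are the differences over 8 tumours with their 95% confidence intervals, all of which include 0, and ticks are the 8 differences with 1 tumour left out. The ticks of Rgs5 and Mylk lie on both sides of 0.

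Rgs5 and Notch3 mark the mural cells, which surround vessels. Rgs5, a regulator that shortens G protein signalling in pericytes, read -1.48, -0.28, -1.08 and -2.38 in Mutant 1 to 4, against -1.75, -1.25, -3.42 and 1.04 in Control 1 to 4. Control 4 was the highest and Control 3 the lowest tumour, and all Mutant tumours lay between them. The difference was 0.04 with a 95% interval of -2.04 to 2.12, so the data fix neither its direction nor its size (limma adjusted p = 1.00). It was -0.66 without Control 3 and 0.83 without Control 4. In row 1 of the slide it was 0.62, and in row 2 it was -0.54.

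Notch3, the receptor by which endothelial ligands instruct smooth muscle cells, read 4.08, 3.86, 4.58 and 4.17 in Mutant 1 to 4, against 3.59, 4.30, 4.00 and 3.38 in Control 1 to 4. Mutant 3 was the highest tumour, and Control 1 and Control 4 were below every Mutant tumour. Notch3 averaged 4.17 ± 0.30 in Mutant and 3.82 ± 0.41 in Control tumours (SD, n = 4 each), or 1.28-fold (difference 0.36, 95% interval -0.19 to 0.91, limma adjusted p = 1.00). The difference was 0.21 without Control 4 and 0.22 without Mutant 3. It was 0.03 in row 1 of the slide and 0.68 in row 2.

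The members varied more from tumour to tumour than most genes on the array. Over the 8 tumours the levels of Rgs5 spanned 4.46, more than those of 96.4% of genes, and Actg2, the narrowest member, spanned 0.90, where the median gene spanned 0.80. The spread was wider among Control than among Mutant tumours for all 8 tested members, as it was for 79.7% of all genes. For Acta2 and Cnn1 the Control SD was 5.51 and 7.36 times the Mutant SD. At least 4 times was reached by these 2 of 8 members and by 9.01% of all genes.

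The members did not share a single pattern over the tumours. Among the 28 pairs of members, 18 had a correlation above 0 over the 8 tumours and 10 below. Acta2, Actg2 and Notch3 were low in Control 1 and Control 4 and high in Control 2 and Mutant 3. Myh11 and Rgs5 were instead highest in Control 4, where Tagln was also highest. After adjustment over the 28 pairs 1 pair passed, Actg2 with Notch3 (r = 0.935, permutation p = 0.00077, adjusted p = 0.0215). Its Spearman's rho was 0.905 (permutation p = 0.00456, adjusted p = 0.101), r was 0.782 without the 2 tumours farthest from the median Actg2 level, and r was 0.887 without Control 4. Acta2 had r = 0.836 with Notch3 and r = 0.833 with Actg2, and Myh11 had r = 0.860 with Rgs5, each at an adjusted permutation p of 0.0880. The rho of these pairs was 0.881, 0.810 and 0.762, and without Control 4 the r of Myh11 with Rgs5 was 0.690. A slide row holds 4 tumours, too few for a correlation within it. The share of pairs among all genes that reach such values was not computed, and Control 4 was lowest or highest in 57.5% of all genes. Genes outside the members, picked as the best of all tested, had higher r (Clstn1 with Notch3 0.995, Nfkbil1 with Actg2 0.982). Whether the members' pairs exceed pairs of other genes was therefore not tested.

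**Figure D3:**
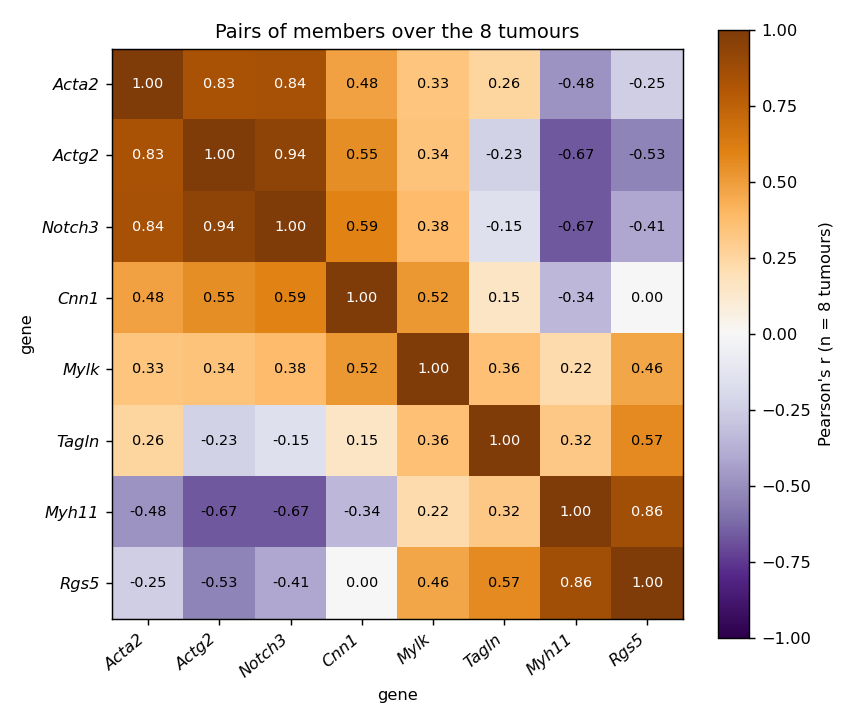
Pearson's r between the levels of each pair of tested members over the 8 tumours, from -1 to 1. Acta2, Actg2 and Notch3 have r between 0.833 and 0.935 with each other, Myh11 and Rgs5 have 0.860, and the values between these sets are below 0.

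Levels of markers of other cells are set beside these patterns. For each list, the centred log2 levels of its tested genes were averaged in every tumour, and the lists do not contain the members. The 10 tested pericyte markers stood at -0.15, 0.37, -0.03 and -0.29 in Mutant 1 to 4, against -0.54, 0.18, -0.43 and 0.89 in Control 1 to 4. The 15 activated fibroblast markers, such as collagen I and periostin, ranged from -0.62 to 1.33 in Mutant tumours and from -1.24 to 2.58 in Control tumours, with Control 4 the highest. Control 4, the tumour with the most Rgs5, Myh11 and Tagln, was highest in 9 of all 16 lists, general fibroblast, epithelial and Schwann cell markers among them. Endothelial markers, 12 of 12 tested, ranged from -0.21 to 0.43 in Mutant and from -0.42 to 0.49 in Control tumours. In the comparison 11 of them were above 0 and 1 below, where 52.4% of all genes were above 0. Their median difference was 0.16, or 0.01 to 0.43 with a tumour left out, and limma called 0 at an adjusted or an unadjusted p under 0.05. Skeletal muscle markers, 12 of 12 tested, stood at 2.04, 2.92, -0.92 and 1.47 in Mutant 1 to 4, against -0.46, 0.23, -1.98 and -3.30 in Control 1 to 4. All 12 were above 0 in the comparison of Mutant with Control, as were 52.4% of all genes, with a median difference of 2.87. An unadjusted limma p under 0.05 was reached by 8 of them and by 2.91% of all genes. At an adjusted p under 0.05, 0 were called. Schwann cell markers, 4 of 4 tested, ranged from -0.89 to 0.70 in Mutant and from -0.98 to 2.55 in Control tumours. These 4 were all below 0 in the comparison, again beside 52.4% of all genes above 0, with 0 called by limma at either threshold. Their median difference was -0.38, but ranged from -0.59 to 0.25 with a tumour left out. Epithelial markers, 4 of 5 tested, ranged from -0.61 to -0.06 in Mutant and from -0.29 to 1.02 in Control tumours. All 4 were below 0 in the comparison, with a median difference of -0.57, while 52.4% of all genes were above 0. Of these 4, 2 (Krt8 and Krt18) had an unadjusted limma p under 0.05, where 2.91% of all genes did. Limma called 0 of them at an adjusted p under 0.05. The part of these cells in the members' levels was not tested.

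**Figure D4:**
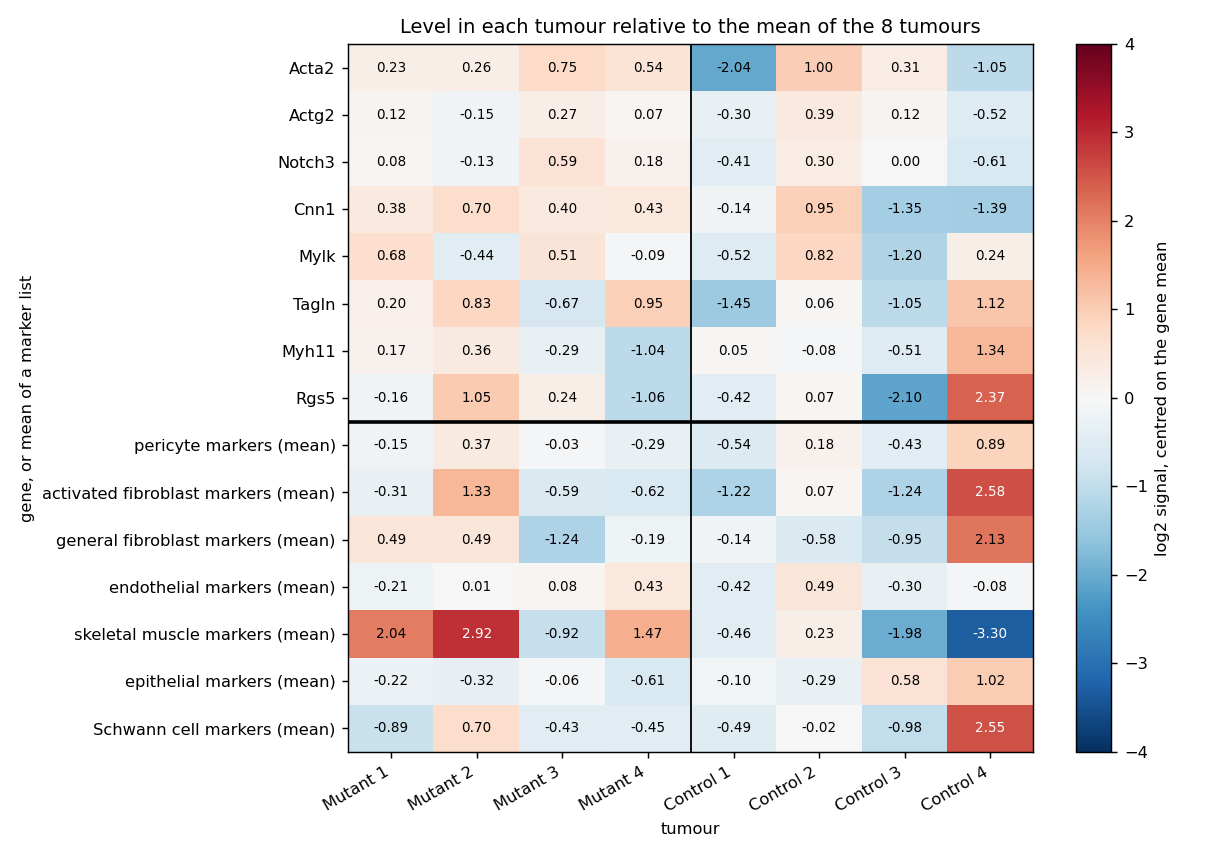
Level of each tested member (above the black line) and mean level of 7 marker lists (below it) in every tumour, as log2 signal centred on the mean of the 8 tumours. In Control 4, Rgs5 was 2.37 above its mean and activated fibroblast markers 2.58 above theirs, while Notch3, Actg2, Acta2 and Cnn1 were below theirs.

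Regulators that switch the contractile programme on or off had a median difference near 0. Of 10 regulators 7 were tested, 2 above 0 and 5 below, with a median difference of -0.02, and 0 were called by limma at an adjusted or an unadjusted p under 0.05. Myocd, the coactivator myocardin, was not among the genes kept. Serum response factor, Srf, read 2.42 ± 0.27 in Mutant and 2.49 ± 0.34 in Control tumours (SD, n = 4 each), a difference of -0.07. Klf4, a factor known to repress contractile genes when smooth muscle cells change state, differed by -0.69 with a standard error of 0.47. It read 3.26, 3.57, 3.59 and 3.02 in Mutant 1 to 4, against 3.42, 2.94, 4.90 and 4.91 in Control 1 to 4. Control 3 and Control 4 had the most Klf4, and the groups overlapped. The members differed among themselves and between those 2 tumours, although Cnn1 was lowest in both. Tagln and Myh11 were highest in Control 4, but in Control 3 they stood at -1.05 and -0.51 relative to their means. Mylk and Rgs5 were low in Control 3 too (-1.20 and -2.10), while Acta2, Actg2 and Notch3 were not (0.31, 0.12 and 0.00469). A relation of Klf4 to the members was not tested.

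Of 28 other contractile genes 25 were tested, 16 above 0 and 9 below, with a median difference of 0.09. Limma called 0 at an adjusted p under 0.05, and 3 had an unadjusted p under 0.05, where 2.91% of all genes did. Among them were Des, the intermediate filament desmin, and Pdlim3, a protein of the sarcomere and of actin bundles. Des read 0.20, 0.69, -2.18 and 0.10 in Mutant 1 to 4, against -2.12, -0.91, -3.06 and -3.50 in Control 1 to 4. Desmin is made by smooth and by skeletal muscle, and Des was high in Mutant 1, 2 and 4, where skeletal muscle markers were high too. Des differed by 2.10 and Pdlim3 by 1.92 (limma adjusted p = 1.00 for each), beside 3.99 for Myh4, a myosin of fast skeletal fibres, and 2.86 for the sarcomere gene Tcap. The share of skeletal muscle in Des and Pdlim3 was not tested. Ppp1r12a, the targeting subunit of the phosphatase that relaxes smooth muscle, differed by -0.22.

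Genes that carry the signal for contraction, such as calcium channels and receptors, numbered 13, of which 12 were tested, 7 above 0 and 5 below, with a median difference of 0.09 and 0 called by limma at either threshold. The 2 of smallest p were Arhgef1 (0.13) and the kinase Rock2 (-0.13). Of 8 tested relatives of Rgs5 in the same RGS subfamily 3 were above 0 and 5 below, with a median of -0.14, again with 0 called at either threshold. That median was 0.14 with array weights and 0.17 without Control 4. Rgs21 differed by -0.41, or by -0.24 without Mutant 2, and Rgs8 by -0.68, or by -0.24 without Mutant 3. With normexp background correction they differed by -0.21 and -0.25.

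In the Notch pathway 13 of 14 other genes were tested, 8 above 0 and 5 below, with a median difference of 0.05. Limma called 0 at an adjusted p under 0.05, and 1, Rbpj, had an unadjusted p under 0.05, where 2.91% of all genes did. It was also the 1 gene of the 13 whose groups did not overlap, where 1.41% of all genes did not. Rbpj, the DNA-binding partner of all Notch receptors, read 2.61, 2.95, 2.75 and 2.66 in Mutant 1 to 4, against 3.11, 2.96, 3.38 and 3.19 in Control 1 to 4. The groups did not overlap in Rbpj, by a margin between Mutant 2 and Control 2 smaller than either SD. Rbpj averaged 2.75 ± 0.15 in Mutant and 3.16 ± 0.17 in Control tumours (SD, n = 4 each), or 0.751-fold (limma unadjusted p = 0.0129, adjusted p = 1.00). The receptor Notch2 differed by 0.24, Notch1 by -0.64 and the ligand Jag2 by -0.29.

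Among 10 tested pericyte markers of 13, 5 were above 0 and 5 below, with a median difference of -0.00275 and 0 called by limma at an adjusted or an unadjusted p under 0.05. Pdgfrb, the receptor that recruits pericytes to vessels, read 4.12 ± 0.28 in Mutant and 3.90 ± 0.46 in Control tumours (SD, n = 4 each). Ndufa4l2, a gene of pericytes that also responds to hypoxia, differed by -1.05 with a standard error of 1.04, by -0.31 without Control 4 and by -1.73 without Mutant 2. Mcam differed by -0.16 and Cox4i2 by -0.13. In other lists the genes of smallest p were Pi16 in general fibroblasts (-1.94), Emcn in endothelium (0.35) and the keratin Krt8 in epithelium (-0.53), each at a limma adjusted p of 1.00.

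The genes whose levels followed the members most closely over the 8 tumours are given as a description, since the best of 16056 genes reaches a high r for any profile over 8 points. With the mean of the 6 contractile members tested, r was highest for Uchl1, a deubiquitinating enzyme (0.970), the histone demethylase Kdm4c (0.960) and Rab33b (0.938). With the mean of Rgs5 and Notch3 it was highest for Ddc (0.973), Mcpt4, a protease of mast cells (0.972), and Manba (0.969). Rgs5 and Notch3 did not follow each other (r = -0.407), so their mean is not a shared profile. Rgs5, which spanned 4.46 against 1.20 for Notch3, weighs most in it. The 6 contractile members did not all follow each other either: Acta2 had r = 0.833 with Actg2 but -0.477 with Myh11. In their mean, members of wider span weigh more, such as Acta2 with 3.04 against 0.90 for Actg2. Lists for single members were made after their values were seen. Acta2 was followed most closely by another actin, Actc1 (r = 0.986, rho = 0.976), which read 2.65, 2.35, 3.07 and 2.85 in Mutant 1 to 4, against 0.57, 3.35, 2.72 and 1.06 in Control 1 to 4. Rgs5 was followed by Adamts15, Maob and Pde1a (r between 0.983 and 0.985), Tagln by Pi4kb (0.972) and Id3 (0.969), Notch3 by Clstn1 (0.995), Cnn1 by Klhl26 (0.984), Actg2 by Nfkbil1 (0.982), Myh11 by Bmx (0.970) and Mylk by Efcab2 (0.955).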

How the data were processed

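Total RNA of 8 tumours was labelled with Cy3 and hybridised to 1 Agilent array each in 1 colour, per the labels' protocols. The scanner software was Agilent Feature Extraction, version 10.7.3.1 per the file headers and 9.1 per the submitters' processing notes. The authors deposited the processed signal as linear intensity, background-subtracted and spatially detrended within the array, with no scaling between arrays. The deposited flag columns are of another kind (other), without a unit. The deposited value table holds linear intensity too, equal within 0.01% to the scanner signal for about 99.5% of probes on every array (column medians 52.4 to 61.2). All arrays lay on 1 slide and 1 scan, in 2 rows that each held 2 Mutant and 2 Control tumours.

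Outlier spots (66 to 117 per array) and controls were left out, and spots of a probe were averaged. The array's 75th percentile was subtracted from log2 signals, and probes well above background on at least 4 arrays were kept. Through RefSeq accessions and the gene names of GRCm38.p6, 32994 of 56605 probes had 1 gene. Coordinates are left out because the array's design used an older build. Each gene was its brightest kept probe with a value on all 8 arrays. The comparison of Mutant with Control used limma (version 3.58.1, under R 4.3.3) and Benjamini-Hochberg adjustment over 16056 genes. Exact permutation tests ran over 70 arrangements, where the smallest p is 0.0286. Correlations of members used all 40320 pairings. Other steps used pandas 2.3.3 under Python 3.11.15. The fit was tested on simulated data. The series' design text gives 4 mice per group, but not which mouse each tumour came from, so p-values measure the spread between these samples.

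The members, lists and rules were chosen with earlier results of these data known. Beside all members, up to 4 genes of smallest p in each list and the genes of highest correlation with the members are named. Some genes of the lists count in their totals but are not reported here by name. Alternatives covered background correction, 2 other normalizations, 3 other filters, the mean of probes, the deposited table, a variance trend, array weights, blocks and leaving out each tumour.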

Additional observations from a re-analysis of the deposited data

Results flagged for a closer look

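A tumour stood far from the other 3 of its group in 9 of 118 groups of 4 examined, where chance gives about 1 in 20. Among the members this held for Cnn1, with Mutant 2 at 0.84 and the other Mutant tumours at 0.51 to 0.57. In the Mutant group Rgs21 was at -4.73 in Mutant 2 against -4.08 to -4.05 in the others, Emcn was at 2.04 in Mutant 4 against 1.28 to 1.36, and S100a4 was at 7.90 in Mutant 4 against 8.56 to 8.66. Mutant 2 was also highest in the level of the other contractile genes, at 0.33 against 0.06 to 0.07, and of activated fibroblast markers, at 1.33 against -0.62 to -0.31. Mutant 3 had the lowest level of cardiac muscle markers, -0.21 against 0.58 to 0.67. In the Control group Arhgef1 was at 4.06 in Control 4 against 3.86 to 3.88, and the level of the RGS subfamily was 0.67 in Control 4 against -0.21 to -0.08.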

How the results depend on the processing

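Limma called 0 members and 0 genes under each of 20 alternative settings, and the smallest adjusted p of a member was 0.559 (Tagln with array weights). Leaving out a tumour, 5 to 7 members were above 0 and their median difference lay between 0.22 and 0.59. Under the 12 other settings 6 to 7 were above 0, with a median of 0.32 to 0.35. At an unadjusted p under 0.05 there were 2 members without Control 2 (Acta2 and Cnn1), 1 with the slide row as a block (Cnn1) and 1 with array weights (Tagln). Over all 16056 genes that count was 467, or 971 without Control 2, 439 with the row block and 1386 with array weights. It ranged from 195 to 971 with a tumour left out, and was highest without Control 2. Differences changed sign for Rgs5 to -0.0758 with normexp and -0.00358 with quantile normalization (-0.66 to 0.83 with a tumour left out) and for Actb to 0.0114 with quantile normalization. Leaving out a tumour gave -0.0099 to 0.66 for Mylk and -0.21 to 0.030 for Srf. The median difference took both signs over the settings in 11 of the 16 other lists. With normexp it was -0.04 for contraction signalling and -0.04 for the Notch pathway, and with array weights 0.14 for the RGS subfamily. With a tumour left out these medians ranged from -0.08 to 0.16, from -0.04 to 0.20 and from -0.25 to 0.17. The causes were not tested. With the replicate number as a block, the members' median difference was 0.35 and 372 genes had an unadjusted p under 0.05. Same-numbered tumours did not deviate together (r of 0.08, -0.31, 0.05 and -0.31 across genes). They also lay in the same row of the slide, and whether they share anything else was not tested. Signal over background limits Lmod1, which did not clear background on any array, and the dimmer probes of Myh11 and Cnn1.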
